A study of Mus musculus with 28 samples.

Results

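The 11 spontaneous plasma cell tumors of the series were compared with normal splenic B cells, 14 of the 28 arrays of the series. The tumors were all samples titled as spontaneous and the controls were the 3 samples titled as normal B cells, so no measured value chose them. Per the labels, each tumor was a whole tumor from the lymph node of a mouse of the strain C.iMyc/IL-6, which has a BALB/c background, taken at 40 to 162 days of age (median 124). The controls came from BALB/c spleen at 90 days of age, with no inserted allele named in their labels. Tissue, strain and age therefore change together with the disease, and their parts in a difference cannot be told apart. The labels state neither the promoters of the Myc and IL-6 alleles nor how the B cells were separated, and nothing in them says that each sample is another animal, so a p-value covers the spread of these samples, which may be technical. The other 14 arrays, tumors grown after adoptive transfer and taken from oil granuloma at 105 to 158 days, with the same strain and background in their labels, entered the fit and one comparison near the end. A whole tumor holds many cell types, and in such bulk RNA fewer cells of a type and less RNA per cell cannot be told apart.

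A mature B cell carries the antigen receptor, its coreceptors and MHC class II on its surface and divides rarely. On becoming a plasma cell it silences that program under Prdm1, Irf4 and Xbp1, enlarges the endoplasmic reticulum (ER) and devotes it to folding and exporting antibody. A plasma cell tumor, or plasmacytoma, keeps much of this secretory state while it divides, and in mice it is classically tied to activated Myc and to IL-6, a growth factor of plasma cells.

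Promoter windows are shown first because several gene groups that differed between tumors and B cells carry short sequences long known in their regulation. The windows run from 250 bases before to 50 after a start of a gene in RefSeq (build GRCm38.p6), on the strand of the gene, and were found by symbol. The ER stress element, written CCAAT, then 9 bases of any kind, then CCACG, and searched on both strands, lay in 39 of all 32851 windows (0.119%). These windows belonged to 0.137% of all genes with a window. It lay in the windows of 7 of the 24 tested genes of the ER chaperone list that had a window and of 2 of 17 in the ER degradation list, and in none of the 26 of the ER translocation list. The 4 called genes of these lists with the element and the largest change are printed here, with the element in capitals in the orientation in which it lies. They are Derl3 (chr10:75893148-75893447, plus strand), Creld2 (chr15:88819396-88819695, plus strand), Pdia6 (chr12:17266339-17266638, plus strand) and Hsp90b1 (chr10:86705395-86705694, minus strand), which holds it in both orientations.
Derl3: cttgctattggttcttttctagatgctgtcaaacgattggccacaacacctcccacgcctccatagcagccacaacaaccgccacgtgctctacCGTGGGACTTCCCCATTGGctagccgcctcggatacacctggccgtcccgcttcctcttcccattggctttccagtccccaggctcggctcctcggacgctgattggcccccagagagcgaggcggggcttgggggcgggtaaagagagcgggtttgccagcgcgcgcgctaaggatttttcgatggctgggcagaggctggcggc
Creld2: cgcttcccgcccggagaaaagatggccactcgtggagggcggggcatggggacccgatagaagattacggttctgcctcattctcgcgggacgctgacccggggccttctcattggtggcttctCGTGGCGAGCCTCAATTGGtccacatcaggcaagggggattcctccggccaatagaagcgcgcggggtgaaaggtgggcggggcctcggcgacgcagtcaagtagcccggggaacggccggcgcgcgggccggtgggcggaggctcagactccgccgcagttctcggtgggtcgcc
Pdia6: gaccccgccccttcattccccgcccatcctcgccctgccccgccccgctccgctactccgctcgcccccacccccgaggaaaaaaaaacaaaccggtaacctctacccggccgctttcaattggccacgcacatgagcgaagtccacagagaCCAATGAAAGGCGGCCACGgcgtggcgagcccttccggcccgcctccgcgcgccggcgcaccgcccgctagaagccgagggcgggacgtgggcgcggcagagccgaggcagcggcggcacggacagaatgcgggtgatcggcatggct
Hsp90b1: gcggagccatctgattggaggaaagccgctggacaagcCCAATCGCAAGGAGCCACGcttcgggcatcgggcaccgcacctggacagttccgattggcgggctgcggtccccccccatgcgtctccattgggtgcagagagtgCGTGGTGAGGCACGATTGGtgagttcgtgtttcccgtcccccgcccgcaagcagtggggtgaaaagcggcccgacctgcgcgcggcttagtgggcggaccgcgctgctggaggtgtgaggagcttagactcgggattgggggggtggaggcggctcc
These genes were higher in the tumors, by 4.39 ± 0.38 for Derl3, 3.80 ± 0.38 for Creld2, 2.00 ± 0.55 for Pdia6 and 1.86 ± 0.23 for Hsp90b1 on the log2 scale. They were picked from the called genes, so their shared direction is no test of the element. Ero1b and Syvn1, which also hold the element, were not called (differences -0.59 and 0.07, limma adjusted p = 0.359 and 0.864). A match is a description of the letters and not of binding.

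The amino acid response element TGATGNAA lay in the windows of 4.51% of all genes, in those of 6 of 22 tested amino acid stress genes and in those of 5 of 12 cytosolic tRNA synthetase genes. The cell cycle element TTTGAA lay in the windows of 20.2% of all genes and in those of 20 of 25 mitosis genes. The letters CTGATTGG, which hold the Y box of MHC class II genes, lay in the windows of 4.7% of all genes and in those of 4 of 12 class II genes. The E box CACGTG, a site of Myc and its relatives that reads the same on both strands, lay in the windows of 8.09% of all genes. It lay in those of 9 of 30 ribosome biogenesis genes and of 4 of 17 polyamine and nucleotide synthesis genes. The windows of the called genes with the largest change are Asns (chr6:7693160-7693459, minus strand) for the first element, Cdca3 (chr6:124829926-124830225, plus strand) for the second, and H2-Oa (chr17:34092129-34092428, plus strand) and H2-Eb1 (chr17:34305617-34305916, plus strand) for the third, with the matched letters in capitals.
Asns: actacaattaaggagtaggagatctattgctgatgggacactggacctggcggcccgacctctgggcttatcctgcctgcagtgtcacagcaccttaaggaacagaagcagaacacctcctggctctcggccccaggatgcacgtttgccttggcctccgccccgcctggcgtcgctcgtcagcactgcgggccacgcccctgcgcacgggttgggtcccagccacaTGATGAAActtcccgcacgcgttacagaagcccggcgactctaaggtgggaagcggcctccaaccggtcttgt
Cdca3: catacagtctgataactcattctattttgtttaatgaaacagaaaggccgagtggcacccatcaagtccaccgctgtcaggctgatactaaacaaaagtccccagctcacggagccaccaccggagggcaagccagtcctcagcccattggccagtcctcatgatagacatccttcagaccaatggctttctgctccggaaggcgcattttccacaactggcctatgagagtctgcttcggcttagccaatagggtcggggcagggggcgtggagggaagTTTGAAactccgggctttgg
H2-Oa: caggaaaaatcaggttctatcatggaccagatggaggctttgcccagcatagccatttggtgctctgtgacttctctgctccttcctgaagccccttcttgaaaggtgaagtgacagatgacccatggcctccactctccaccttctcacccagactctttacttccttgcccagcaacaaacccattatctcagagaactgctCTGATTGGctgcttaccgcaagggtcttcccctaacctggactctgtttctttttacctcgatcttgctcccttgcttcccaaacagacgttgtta
H2-Eb1: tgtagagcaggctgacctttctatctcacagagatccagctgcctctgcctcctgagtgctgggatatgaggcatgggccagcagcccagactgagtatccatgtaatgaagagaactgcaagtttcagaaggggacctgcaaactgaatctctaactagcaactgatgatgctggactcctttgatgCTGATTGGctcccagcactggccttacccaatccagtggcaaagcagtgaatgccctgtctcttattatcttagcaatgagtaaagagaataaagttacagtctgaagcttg
Asns and Cdca3 were higher in the tumors and the H2 genes lower, with the values given below for each group.

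The arrays of normal B cells had 15633 to 16866 detected probes and those of the tumors 14472 to 16756, a difference that did not pass an exact permutation test (two-sided p = 0.423). Detected means a detection p under 0.05, and the dimmest detected signal of an array lay between 5.07 and 5.30 on the log2 scale. Across genes, the correlation between arrays was 0.990 to 0.991 among the normal samples and 0.881 to 0.971 among the tumors. The marker lists of other tissues set 6 tumors apart. The mean of 32 exocrine pancreas genes was 4.80 to 4.90 in normal B cells, 4.79 to 4.98 in tumors 1, 3, 6, 7 and 9, and 9.75 to 13.47 in tumors 2, 4, 5, 8, 10 and 11. The same 6 tumors had Cela2a or Reg1 raised by over 1 log2 unit above the normal samples. The counts of the gene lists below are therefore given also for the 5 tumors without raised pancreas genes. In the plot of marker lists by array the fibroblast and endothelium lists were higher in every tumor than in any normal sample, with or without pancreas transcripts.

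**Figure D1:**
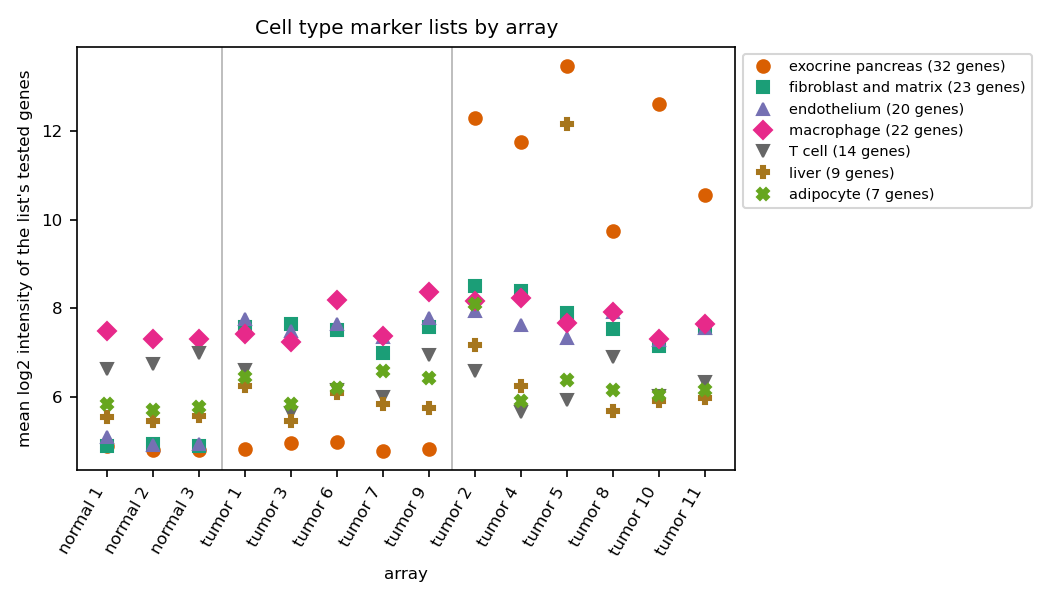
Mean log2 intensity of the tested genes of 7 marker lists (symbols) on each of 14 arrays, with vertical lines between normal B cells, the 5 tumors without raised pancreas genes and the 6 with them. The pancreas list lies at 9.75 to 13.47 in the 6 tumors on the right and at 4.79 to 4.98 in the other 5.

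The labels were checked against markers. Of 28 tested B cell surface receptor genes, 27 or 28 were detected on each normal array, with a list mean of 10.37 to 10.46. RNA of other cells was present in the controls too. Hba-a1, the alpha globin of red cells, read 12.75, 11.83 and 12.08, S100a8 of neutrophils 11.74, 10.66 and 12.17, C1qb of macrophages 10.73, 9.97 and 9.98 and Cd3e of T cells 6.73, 6.95 and 7.62 on the log2 scale in normal samples 1 to 3. The part of these cells in the results was not tested.

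Of 11804 genes tested, 4301 (36.4%) were called, meaning an adjusted p under 0.05 in limma. Of these 2185 (18.5% of genes tested) were higher and 2116 (17.9%) lower in the tumors, and 1637 (13.9%) and 1398 (11.8%) of them by at least 1 log2 unit. The counts of list members called higher or lower below are to be read against the 18.5% and 17.9% of all genes. The median difference over all genes was 0.08. With arrays scaled by their medians in place of quantile normalization that median was -0.07 and 1344 genes were called higher against 2834 lower, 32.2% higher against 50.8%. Smaller rises therefore depend on the scaling, and the counts under it are given for the groups they moved most. Others lost fewer calls with it, such as the ER chaperones with 17 higher in place of 21, or had more lower members, such as BAFF, APRIL and TNF receptors with 8 in place of 6 and the IL-6 pathway with 7 in place of 5. Against the 5 tumors without raised pancreas genes 1741 genes (14.7%) were higher and 1657 (14.0%) lower. Of the 4301 calls, 4297 kept their sign there and 3332 (77.5%) kept the call. Of 302 called genes that the naming rule picked, 251 kept it. The exceptions among those described are given with their p, apart from the pancreas genes and Eif2s3y, Ccl21a, Saa3 and Trem2. The call of these against normal B cells was lost there too. Where a group was undetected on all its arrays the fold is given as a bound, from the mean of the detected group against the dimmest detected signals of the other.

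Surface and signalling genes of the mature B cell were far lower in the tumors. The 12 lowest called genes whose groups do not overlap included Fcmr, the Fc receptor for IgM, Cd69, an early activation antigen that also holds lymphocytes in lymphoid tissue, and Fcer2a, the low-affinity IgE receptor CD23. Fcmr stood at 14.35, 14.40 and 14.41 in the normal samples and at 4.67 to 7.37 (median 5.81) in the tumors, and fell by 8.49 ± 0.75 on the log2 scale (SE, adjusted p = 4.79e-10, limma). Cd69 stood at 13.02, 13.29 and 13.35 against 4.54 to 6.59 (median 5.29) and fell by 7.90 ± 0.75 (adjusted p = 1.99e-09). The others of the 12 were the class II genes H2-DMb2 and H2-Oa, the sorting receptor Sorl1, the transcription factors Klf2 and Egr3, the kinases Srpk3 and Blk, the oxysterol receptor Gpr183, which guides B cells within follicles, and the NF-kB regulator Nfkbid.

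**Figure D2:**
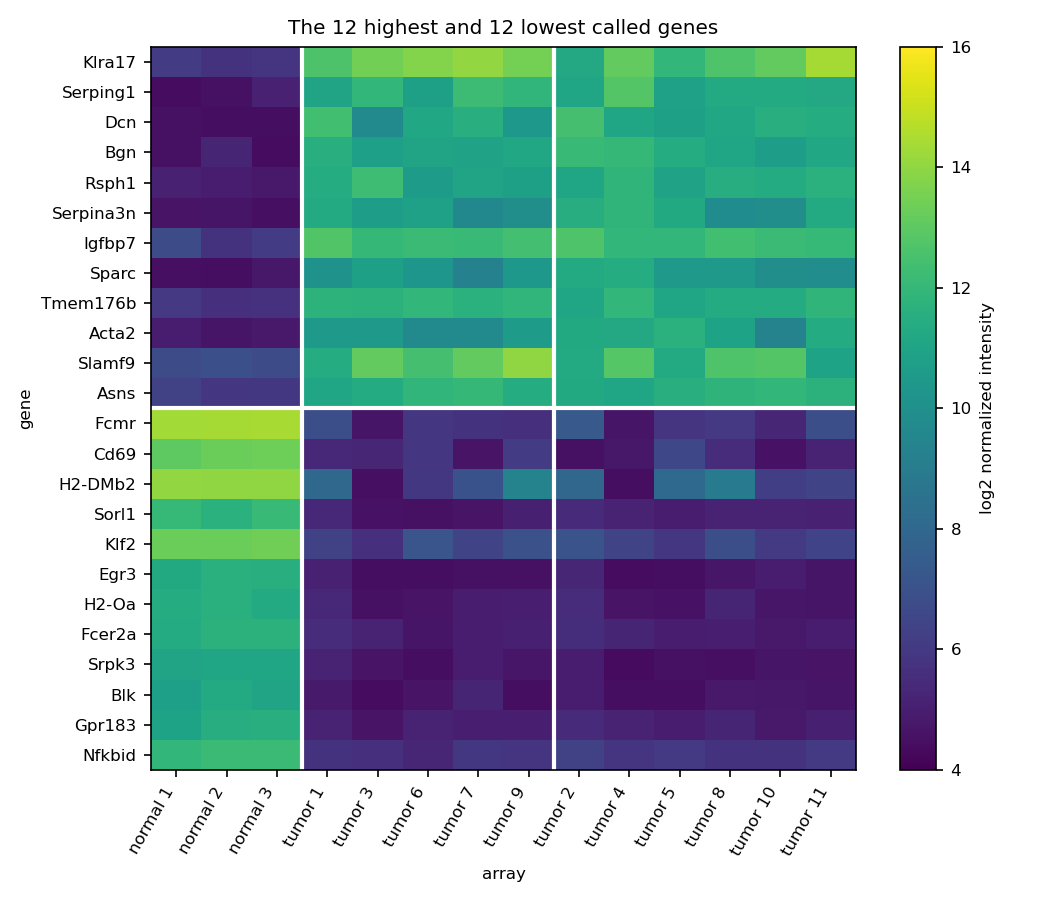
Log2 normalized intensity (colour) of the 12 highest and 12 lowest called genes without overlap between groups (rows) on 14 arrays (columns), with white lines between normal B cells, tumors without and tumors with raised pancreas genes. The rows were picked for no overlap between the normal samples and any tumor, so the contrast in both kinds of tumor follows from that choice.

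Of 28 tested B cell surface receptor genes 25 were lower and none higher, where 17.9% of all genes were lower. Their median difference was -3.76 (-3.59 with undetected members at their bound), against 0.08 over all genes, and -3.75 with 24 lower in the tumors without pancreas transcripts. Cd22, an inhibitory coreceptor, stood at 11.26, 11.15 and 11.31 in the normal samples and 4.42 to 5.96 (median 4.96) in the tumors, and fell by 6.23 ± 0.42. Siglecg, another inhibitory lectin, was detected in no tumor and was at least 41.1-fold lower (adjusted p = 5.03e-11). Ms4a1, which encodes CD20, fell by 3.91 ± 0.20 from 9.06, 9.11 and 8.89 to values of 4.74 to 5.47 (median 5.13). Cr2, the complement receptor CD21, stood at 8.40, 8.72 and 8.30 and was detected in no tumor, at least 9.87-fold lower. The chemokine receptors of follicle and T cell zone were lower, as Cxcr5 fell by 5.47 ± 0.30 and Ccr7, detected in no tumor, was at least 10.9-fold lower. Cd79b, the signalling chain of the antigen receptor, fell by 3.24 ± 0.24 but was detected in all tumors, at 9.74 to 11.23 (median 10.61) against 13.85, 14.00 and 13.80.

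Among 19 B cell transcription factors 17 were lower and none higher (median -2.64, and 15 lower with a median of -2.65 in the tumors without pancreas transcripts). Klf2, which keeps lymphocytes quiescent and recirculating, was bright in the normal samples at 13.31, 13.33 and 13.39 and stood at 5.67 to 7.16 (median 6.47) in the tumors, and fell by 6.85 ± 0.76 (adjusted p = 3.22e-08). Bcl11a and Ets1 changed by -5.50 ± 0.51 and -4.46 ± 0.54. Irf8 fell by 4.39 ± 0.54, Spib by 3.68 ± 0.23 and Ikzf3 by 3.12 ± 0.24. Ebf1, a founding factor of the B lineage, stood at 7.79, 7.56 and 7.56 against 5.07 to 6.29 (median 5.88) and fell by 1.76 ± 0.27. Bcl6, the factor of the germinal centre, fell by 2.97 ± 0.56. The groups did not overlap for 17 of the 19 genes, where 18.4% of all genes lay wholly lower in the tumors.

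Components of B cell receptor signalling were lower in 21 of 26 cases and higher in none (median -1.83). In the tumors without pancreas transcripts 17 were lower and the median was -1.66. Blk, a B cell kinase of the Src family, stood at 10.79, 11.34 and 11.02 in the normal samples and at 4.40 to 5.26 (median 4.70) in the tumors, and was detected in 1 of the 11 (it fell by 6.35 ± 0.51, adjusted p = 6.66e-11). Prkcb, the protein kinase of the pathway to NF-kB, fell by 5.10 ± 0.62, and Ptpn6, the phosphatase SHP-1, fell by 4.92 ± 0.77. The scaffolds Bank1 and Pik3ap1 changed by -3.51 ± 0.30 and -3.20 ± 0.60.

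MHC class II presentation was lower with wide differences among tumors. Of 17 genes 12 were lower and 1 higher (median -4.76), with the same counts and a median of -4.71 without pancreas tumors. Ciita, the master activator of class II genes, stood at 10.82, 10.84 and 10.91 in normal B cells and 4.47 to 6.52 (median 5.03) in tumors and fell by 5.58 ± 0.52 (adjusted p = 1.47e-09). H2-Eb1, the E beta chain, stood at 14.25, 14.24 and 14.34 and ranged from 4.68 in tumor 3 to 11.54 in tumor 9, so that the brightest tumor still lay below the normal samples. H2-Oa and H2-Ob, the chains of the peptide loading regulator, were lower, as H2-Oa fell by 6.58 ± 0.44 and H2-Ob was detected in no tumor and was at least 23.7-fold lower. Cd74, the invariant chain, stood at 15.07, 15.40 and 15.20 and fell by 4.29 ± 0.63 to values of 8.89 to 12.78 (median 11.13). The member that rose was Lgmn, an endosomal protease that cuts the invariant chain and is also abundant in macrophages, at 10.55, 10.27 and 10.40 against 11.08 to 13.36 (median 12.47) (rise of 1.95 ± 0.40, adjusted p = 2.58e-04). Without tumors 3 and 4, a setting chosen after the values were seen, the list's median was -4.00 with the same counts. Class I differed less. Of 14 class I and immunoproteasome genes 4 were lower, namely H2-D1, H2-K1, H2-T23 and H2-M3, and H2-D1 fell by 1.92 ± 0.49 from 13.29, 13.28 and 13.18 to values of 10.53 to 12.61 (median 11.37). The counts were the same without pancreas tumors. With the mean of detected probes H2-D1 and H2-K1 were not called (adjusted p = 0.0727 and 0.46).

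Genes of plasma cell identity were mostly higher. Of 24 tested, 13 were higher and 3 lower (median 1.53), where 18.5% of all genes were higher, and the tumors without pancreas transcripts had 13 higher and 2 lower (median 1.55). Xbp1, the transcription factor that builds the secretory apparatus, was already bright in B cells at 11.70, 11.50 and 11.67 and stood at 13.14 to 14.54 (median 13.96) in the tumors, a rise of 2.23 ± 0.33 (adjusted p = 4.29e-06). Bhlha15, a factor of secretory cells also called Mist1, stood at 5.62, 5.80 and 5.34 against 9.31 to 10.89 (median 10.37) and rose by 4.72 ± 0.29 (adjusted p = 2.64e-13). Sdc1, the plasma cell surface proteoglycan CD138, rose by 3.02 ± 0.42 from 4.78, 5.33 and 4.69 to values of 6.93 to 8.81 (median 7.94), above every normal sample. Fkbp11, an ER prolyl isomerase, rose by 4.28 ± 0.64, the ER stress factor Creb3l2 by 3.50 ± 0.56 and Ly6c1 by 3.81 ± 0.87.

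The regulators Irf4 and Prdm1 were not called. Irf4 stood at 10.68, 11.08 and 11.14 in normal B cells and 9.87 to 11.07 (median 10.81) in the tumors, overlapping ranges with a difference of -0.36 ± 0.35 (adjusted p = 0.479). Prdm1, which encodes Blimp-1, was detected in no normal sample and in 10 of 11 tumors, at 5.15 to 7.85 (median 5.74) against 4.66, 4.40 and 4.60, a difference of 1.48 ± 0.64 (adjusted p = 0.0696). The 3 lower members were Cxcr4, the receptor that retains plasma cells in the bone marrow, which fell by 2.67 ± 0.30 from 11.38, 11.27 and 11.39 to values of 7.61 to 9.41 (median 8.70), Tnfrsf13b (TACI), which fell by 1.78 ± 0.42, and Tnfrsf18, which fell by 1.21 ± 0.44 (adjusted p = 0.0888 without pancreas tumors). Tnfrsf17, the survival receptor BCMA, ranged from 4.55 to 10.56 among tumors and was not called (adjusted p = 0.192). In the plot of single arrays Xbp1, Sdc1 and Derl3 separated every tumor from every normal sample while Irf4 did not.

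Of the genes that make, assemble and carry antibody 4 were tested, of which 2 were higher and none lower, and 2 and 1 without pancreas tumors, where Pigr, the receptor that carries polymeric antibody across epithelium, fell by 0.90 ± 0.16 (adjusted p = 1.84e-04). Mzb1, an ER cochaperone of antibody assembly, stood at 13.19, 13.24 and 13.16 and rose by 1.70 ± 0.36 to values of 14.16 to 15.17 (median 15.06) (adjusted p = 3.57e-04). Jchain, which joins IgM and IgA multimers, was undetected in the normal samples and at least 2.29-fold higher, at 5.36 to 7.54 (median 6.27) (adjusted p = 0.00758). Ighg1, the constant region of IgG1, differed between single tumors by more than any other gene among the 5 tumors without pancreas transcripts (SD 4.07). It stood at 6.43, 6.80 and 6.74 in the normal samples, between 12.4 and 14.5 in tumors 1, 2, 7, 8 and 11, at 10.23 in tumor 9, at 8.78 in tumor 10 and between 5.4 and 5.9 in tumors 3, 4, 5 and 6. The last 4 therefore lay below the normal samples and the others above them, and the mean difference of 3.33 ± 1.66 was not called (adjusted p = 0.12).

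**Figure D3:**
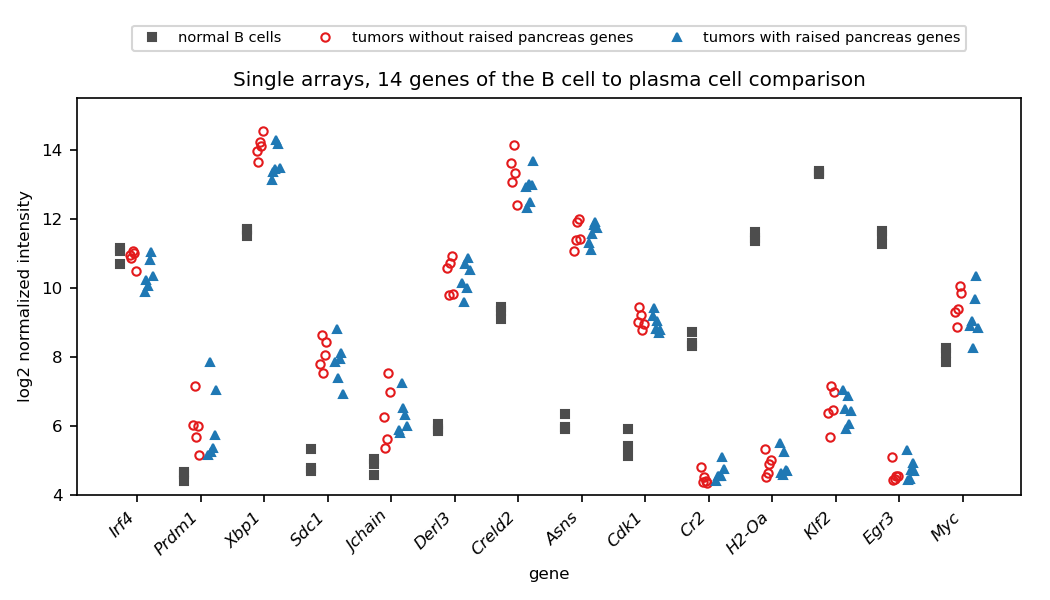
Log2 normalized intensity on single arrays for 14 genes (columns), with squares for 3 normal samples, open circles for 5 tumors without and triangles for 6 tumors with raised pancreas genes. Xbp1, Sdc1, Derl3 and Asns lie higher, and Cr2, H2-Oa, Klf2 and Egr3 lower, in every tumor than in any normal sample, while Irf4 overlaps.

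The secretory pathway was higher from entry into the ER to export. Of 29 tested chaperones and unfolded protein response genes 21 were higher and none lower (median 1.78), and 18 were higher in the tumors without pancreas transcripts (median 1.96). Creld2, a stress-induced ER protein, stood at 9.32, 9.09 and 9.45 in B cells and 12.31 to 14.15 (median 13.01) in tumors and rose by 3.80 ± 0.38 (adjusted p = 5.86e-09). P4hb, the protein disulfide isomerase, rose by 2.97 ± 0.21 from 10.60, 10.35 and 10.67 to values of 13.03 to 13.88 (median 13.62). Hspa5, the chaperone BiP, stood at 5.19, 5.38 and 4.88 in normal samples against 6.02 to 8.35 (median 6.89) and rose by 1.78 ± 0.34. The normal values of this probe lay near the dimmest detected signals of their arrays (5.07, 5.17 and 5.14). Sdf2l1 rose by 3.52 ± 0.52, the nucleotide exchange factor Sil1 by 2.93 ± 0.53 and Ern1, the stress sensor that splices Xbp1 RNA, by 1.94 ± 0.23. The groups were apart for 20 of the 29 genes, where 20.2% of all genes lay wholly higher in the tumors. Ddit3, the death-promoting factor CHOP, was not among the called genes, at 7.61, 7.79 and 8.15 against 4.81 to 7.67 (median 6.75) (difference -1.29 ± 0.58, adjusted p = 0.081).

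In ER-associated degradation, which pulls misfolded proteins back to the cytosol, 11 of 19 genes were higher and 1 lower (10 and 0 without pancreas tumors). Sel1l, the scaffold of the retrotranslocation complex, stood at 8.83, 8.41 and 8.84 in normal samples against 12.52 to 13.20 (median 13.02) and rose by 4.20 ± 0.28 (adjusted p = 1.41e-12). Derl3, a Derlin of secretory cells, rose by 4.39 ± 0.38 from 6.07, 5.89 and 5.86 to values of 9.58 to 10.93 (median 10.51). The mannose-trimming enzymes Edem1, Edem2 and Man1b1 rose by 3.76 ± 0.77, 2.29 ± 0.20 and 2.20 ± 0.20. Faf2, an adaptor that recruits the unfolding ATPase, fell by 0.70 ± 0.21 with overlapping values, and was not called without the pancreas tumors (adjusted p = 0.0562).

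Translocation into the ER and N-glycosylation had 29 of 35 genes higher and none lower (median 1.50), and 26 in the tumors without pancreas transcripts (median 1.54). Spcs3, a signal peptidase subunit, stood at 8.37, 8.19 and 8.10 in normal samples against 11.66 to 12.86 (median 12.11) and rose by 3.89 ± 0.48 (adjusted p = 1.88e-07). Ddost of the oligosaccharyltransferase rose by 3.35 ± 0.29, Ssr2 of the translocon by 3.19 ± 0.35, and the channel subunits Sec61a1 and Sec61b by 2.51 ± 0.30 and 2.38 ± 0.45. With median scaling 20 of the 35 were called, all higher. In export from ER to Golgi 23 of 32 genes were higher and none lower (median 1.20), with the same count without pancreas tumors and 15 with median scaling. Kdelr3, a receptor that returns ER residents, was undetected in the normal samples and at least 17.9-fold higher, at 8.56 to 9.91 (median 9.29) (adjusted p = 2.97e-08). The cargo receptors Lman1 and Tmed3 rose by 2.60 ± 0.29 and 2.68 ± 0.41. Of 27 constitutive proteasome subunits 19 were higher and none lower, by less (median 0.80), with 16 in the tumors without pancreas transcripts but 4 with median scaling. Psmd14, the deubiquitinase of the lid, rose by 1.59 ± 0.37 from 8.27, 7.98 and 7.98 to values of 9.02 to 10.24 (median 9.64).

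**Figure D4:**
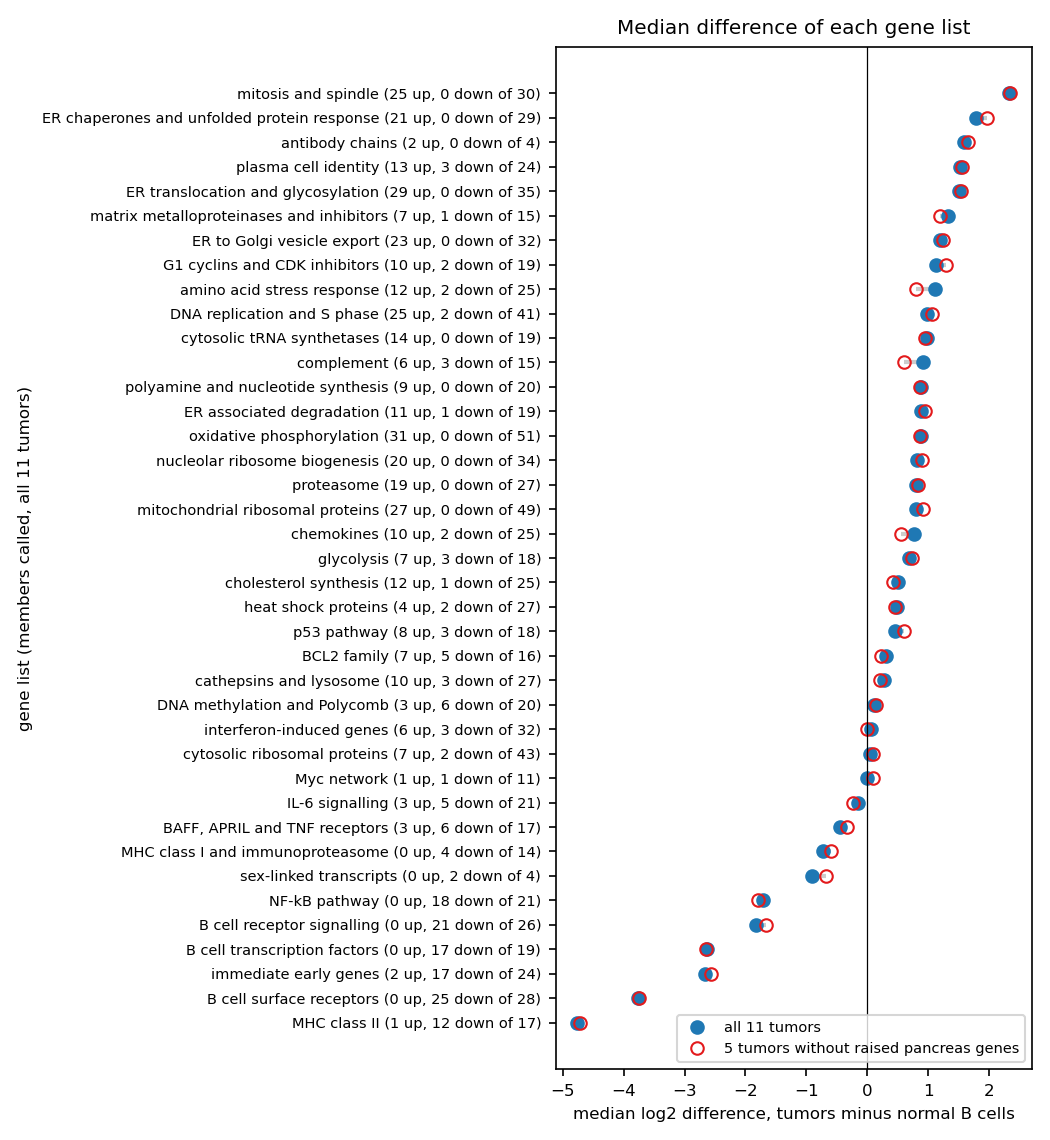
Median log2 difference between tumors and normal B cells of each of 39 gene lists, for all 11 tumors (filled) and for the 5 without raised pancreas genes (open), with the number of members called beside each name. The amino acid stress list moved from 1.12 to 0.80.

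Genes of cell division were higher. Of 30 mitosis and spindle genes 25 were higher and none lower (median 2.32, or 2.19 with the 10 members undetected in a group at their bound), and 24 in the tumors without pancreas transcripts (median 2.35). Cdk1, the kinase that drives entry into mitosis, stood at 5.90, 5.12 and 5.41 in normal B cells and 8.70 to 9.44 (median 9.02) in tumors and rose by 3.55 ± 0.38 (adjusted p = 1.99e-08). Cdc20, the activator of the anaphase-promoting complex, rose by 3.52 ± 0.29 from 7.02, 7.19 and 6.89 to values of 9.96 to 11.20 (median 10.49). Cdca3 rose by 3.72 ± 0.38, Birc5, or survivin, by 3.56 ± 0.43 and the kinesin Kif22 by 3.22 ± 0.34, and Anln, a ring protein of cytokinesis, was at least 9.29-fold higher. The groups were apart, since the mean of the list lay between 7.59 and 8.73 in tumors and between 5.88 and 6.01 in normal samples.

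In DNA replication 25 of 41 genes were higher and 2 lower (median 0.98), with the same counts in the tumors without pancreas transcripts and 17 and 2 with median scaling. The origin licensing and firing factors Cdc6, Mcm10 and Cdc45 rose by 3.60 ± 0.58, 3.14 ± 0.32 and 3.09 ± 0.40, and Rrm2, the ribonucleotide reductase subunit, by 2.82 ± 0.51. The members that moved against the list were Pold1, the catalytic subunit of polymerase delta, at 10.74, 10.86 and 10.76 against 8.31 to 8.79 (median 8.56) (it fell by 2.24 ± 0.21, adjusted p = 9.25e-10), and the clamp loader subunit Rfc2, which fell by 0.95 ± 0.24.

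Among 19 G1 cyclins and inhibitors of cyclin-dependent kinases (CDKs) 10 were higher and 2 lower, with 7 and 2 in the tumors without pancreas transcripts. Cdkn1a (p21, a CDK inhibitor) was undetected in the normal samples and stood at 8.82 to 10.67 (median 9.43) in the tumors, at least 22.4-fold higher (adjusted p = 1.06e-10). Ccnd2, cyclin D2, rose by 2.71 ± 0.27 from 8.09, 7.86 and 7.83 to values of 10.17 to 11.06 (median 10.61), and cyclin E1 (Ccne1) by 1.90 ± 0.49. Rb1 fell by 0.99 ± 0.23 and Cdkn2d fell by 1.00 ± 0.34. Of 18 genes of the p53 pathway, with Cdkn1a among them, 8 were higher and 3 lower, with the same counts without pancreas tumors. Bbc3, the death gene PUMA, stood at 6.40, 6.48 and 6.61 in normal samples against 9.39 to 10.39 (median 9.54) and rose by 3.16 ± 0.31 (adjusted p = 2.77e-09), though its other probes were not called. Trp53inp1 rose by 2.05 ± 0.39, and Phlda3 was undetected in the normal samples and at least 3.87-fold higher. Gadd45a, Sesn1 and Pmaip1 changed by -3.13 ± 0.61, -2.42 ± 0.61 and -1.49 ± 0.40. The members of this pathway therefore moved both ways.

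The BCL2 family moved both ways as well, with 7 of 16 genes higher and 5 lower (5 and 5 without pancreas tumors, 4 and 6 with median scaling). Bcl2 itself, the survival factor of resting B cells, stood at 9.17, 8.83 and 8.73 and fell by 3.92 ± 0.48 to values of 4.62 to 5.38 (median 4.90) (adjusted p = 1.77e-07). Bcl2l1, which encodes BCL-XL, was detected in 1 normal sample and all tumors and rose by 2.73 ± 0.53 to values of 5.36 to 8.15 (median 7.81). Bcl2a1b and Bcl2a1d, near-identical copies that a probe may not separate, changed by -2.33 ± 0.47 and -2.46 ± 0.52. Mcl1, on which plasma cells depend, stood at 11.98, 11.89 and 12.05 against 10.94 to 11.77 (median 11.51) and was not called (difference -0.53 ± 0.31, adjusted p = 0.19).

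Myc, the gene of the inserted allele, stood at 7.84, 8.11 and 8.26 in normal B cells and 8.26 to 10.35 (median 9.30) in tumors, and the difference of 1.25 ± 0.54 was not called (adjusted p = 0.0704, and 0.0973 without pancreas tumors). The tumors' Myc values lay at or above the highest normal sample. The labels do not state whether the Myc and Il6 probes measure the inserted alleles, so these values need not include them. Mouse Il6 was detected in no normal sample and in 1 tumor (difference 0.03 ± 0.22, adjusted p = 0.929), and its receptor Il6ra stood at 6.73, 6.74 and 7.04 against 7.31 to 8.92 (median 8.03) (difference 1.22 ± 0.52, adjusted p = 0.0689). Among 11 partners and antagonists of Myc, Mxi1 was higher and Trrap lower, with 1 and 1 also without pancreas tumors. In the IL-6 pathway 3 of 21 genes were higher and 5 lower, and 1 and 2 without pancreas tumors. The counts of the Myc partners and of the IL-6 pathway are to be read against 18.5% of all genes higher and 17.9% lower. Cish, an inhibitor induced by cytokines, rose by 1.51 ± 0.35 and Jak1 fell by 1.59 ± 0.23, while the feedback inhibitor Socs3 overlapped between the groups at 8.88, 8.44 and 8.89 against 8.06 to 9.53 (median 8.72) (difference 0.08 ± 0.61, adjusted p = 0.936).

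Growth-related machinery was higher by smaller amounts that depended on the scaling. Of 34 nucleolar ribosome biogenesis genes 20 were higher and none lower (median 0.82), 19 without pancreas tumors and 4 with median scaling. Rrp1b rose by 2.31 ± 0.48 from 7.41, 7.16 and 7.73 to values of 9.31 to 10.14 (median 9.76), and the nucleolar methyltransferase Nop2 by 1.50 ± 0.31. Mitochondrial ribosomal proteins had 27 of 49 genes higher and none lower (22 without pancreas tumors, 13 with median scaling), led by Mrpl17 with a rise of 2.08 ± 0.26. Oxidative phosphorylation had 31 of 51 higher and none lower (25 and 13), led by Ndufa1 of complex I at 10.90, 10.97 and 10.86 against 12.31 to 13.43 (median 12.82) (rise of 1.90 ± 0.35). Cytosolic ribosomal proteins, by contrast, had a median difference of 0.04, with 7 of 43 genes higher and 2 lower, a share of higher calls near the 18.5% of all genes, and 4 and 0 without pancreas tumors. Rplp0 of the stalk rose by 2.09 ± 0.23, and the lower members Rps21 and Rpl23 changed by -0.49 ± 0.16 and -0.41 ± 0.14 and were not called without pancreas tumors (adjusted p = 0.121 and 0.0888). Many of these proteins have processed copies in the genome with which a probe can share signal. Of 20 genes of polyamine and nucleotide synthesis 9 were higher and none lower (8 and 0 without pancreas tumors, 5 and 1 with median scaling). Srm, which makes spermidine, stood at 8.70, 8.51 and 8.42 in normal samples against 11.10 to 11.92 (median 11.64) and rose by 3.07 ± 0.30 (adjusted p = 4.50e-09), and Tyms, which makes thymidylate, rose by 2.77 ± 0.40.

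The amino acid stress response, driven by the kinases that sense amino acid lack and by Atf4, had 12 of 25 genes higher and 2 lower (median 1.12). The counts were the same in the tumors without pancreas transcripts, while the median was 0.80. Asns, asparagine synthetase and one of the 12 highest called genes whose groups do not overlap, stood at 6.34, 5.92 and 5.96 in normal B cells and at 11.06 to 12.00 (median 11.58) in the tumors, and rose by 5.49 ± 0.33, or 45-fold (adjusted p = 1.97e-13). The rise was 5.48 ± 0.41 in the tumors without pancreas transcripts. Psat1 of serine synthesis rose by 3.40 ± 0.35 from 7.39, 7.43 and 7.12 to values of 10.25 to 11.11 (median 10.65), and Chac1 and Eif4ebp1 by 2.79 ± 0.69 and 2.72 ± 0.32. Nupr1, a stress gene that the exocrine pancreas also induces, ranged from 6.69 to 13.08 among tumors, and its rise of 4.86 ± 0.94 was 3.06 ± 0.70 in the tumors without pancreas transcripts (adjusted p = 0.00197). Its highest tumors were 5, 4 and 10, all with raised pancreas genes. The lower members were Ppp1r15a, the phosphatase subunit GADD34, which fell by 4.12 ± 0.41 from 10.99, 11.25 and 11.19 to values of 6.47 to 7.90 (median 6.99), and the amino acid carrier Slc38a2, which fell by 1.53 ± 0.22. Atf4 itself was not called at 11.53, 11.62 and 11.71 against 10.25 to 11.78 (median 11.22) (difference -0.40 ± 0.25, adjusted p = 0.224). Of 19 cytosolic tRNA synthetases 14 were higher and none lower, 11 without pancreas tumors and 7 higher with 1 lower under median scaling, led by Nars with a rise of 1.76 ± 0.32.

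In lipid synthesis 12 of 25 genes of the cholesterol list were higher and 1 lower. Fdps, the farnesyl diphosphate synthase, stood at 7.62, 7.63 and 7.53 in normal samples against 9.91 to 11.14 (median 10.48) and rose by 2.96 ± 0.38 (adjusted p = 4.23e-07), and Sqle and Insig1 rose by 2.42 ± 0.41 and 2.10 ± 0.53. The lower gene was Scd1, which desaturates stearate, at 12.87, 13.03 and 12.97 against 5.13 to 11.59 (median 6.71) (it fell by 5.61 ± 1.01, adjusted p = 6.12e-05). Without pancreas tumors Scd1 fell by 6.46 ± 0.81 and the list had 10 higher and 1 lower. Median scaling left 7 higher and 4 lower. Glycolysis had 7 of 18 genes higher and 3 lower, 6 and 1 without pancreas tumors, and 2 and 3 with median scaling. Pkm, pyruvate kinase, rose by 1.62 ± 0.28 from 10.38, 10.10 and 10.28 to values of 11.36 to 12.54 (median 11.93). The glucose carrier Slc2a3 fell by 3.84 ± 0.65 and Slc2a1 fell by 1.21 ± 0.40, and without pancreas tumors Slc2a1 had an adjusted p of 0.0798. Heat shock proteins had 4 of 27 genes higher and 2 lower, 2 and 2 without pancreas tumors, and 1 and 2 with median scaling. Over all genes 18.5% were higher and 17.9% lower, larger shares than in this list. Bag3 rose by 2.41 ± 0.26 and the inducible Hspa1a fell by 1.52 ± 0.40 with overlapping values.

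Immediate early genes, which cells switch on within minutes of a stimulus, were low in the tumors. Of 24, 17 were lower and 2 higher (median -2.67), and 17 and 1 in the tumors without pancreas transcripts (median -2.56). Fos stood at 12.64, 12.53 and 12.58 in normal B cells and 5.73 to 7.74 (median 6.52) in tumors and fell by 5.93 ± 0.84 (adjusted p = 1.90e-06). Egr3 stood at 11.28, 11.64 and 11.55 against 4.42 to 5.29 (median 4.55), was detected in 2 tumors and fell by 6.79 ± 0.17. Egr1 and Fosb changed by -5.27 ± 0.65 and -5.72 ± 0.28, and the dual phosphatase Dusp2 fell by 5.63 ± 0.49. The 2 that rose were Gadd45b, by 1.81 ± 0.31, and Fosl2, by 1.17 ± 0.46, the latter with overlapping values and not called without pancreas tumors (adjusted p = 0.111).

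Of 21 NF-kB pathway genes 18 were lower and none higher (median -1.72, and 15 lower with a median of -1.79 in the tumors without pancreas transcripts). Nfkbid, a nuclear inhibitor-like regulator induced by the antigen receptor, stood at 11.95, 12.17 and 12.18 in normal samples against 5.29 to 6.35 (median 5.83) and fell by 6.26 ± 0.35 (adjusted p = 2.24e-14). Tnfaip3, the inhibitor A20, fell by 4.19 ± 0.46 and Relb of the alternative pathway by 3.05 ± 0.45. Among 17 BAFF, APRIL and TNF receptor family genes 3 were higher and 6 lower, and 2 and 5 without pancreas tumors. Cd40, the receptor for T cell help, stood at 10.98, 11.08 and 11.27 in normal samples against 4.59 to 6.33 (median 5.21) and fell by 5.68 ± 0.54, and the lymphotoxin genes were lower, as Ltb fell by 6.01 ± 0.41 and Lta fell by 2.92 ± 0.23. Tnfsf13b, the survival factor BAFF, was undetected in the normal samples and at least 3.04-fold higher, and the death ligand Tnfsf10 rose by 2.14 ± 0.48.

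Immune signals of other kinds moved in both directions. Of 32 interferon-induced genes 6 were higher and 3 lower (median 0.06), and 4 and 2 without pancreas tumors, shares near or below those of all genes, and with median scaling 5 were higher and 6 lower. Ifitm3 rose by 3.03 ± 0.62 from 8.72, 7.99 and 8.54 to values of 10.12 to 12.23 (median 11.55), and Ddx58, the RNA sensor RIG-I, fell by 1.31 ± 0.36. Of 25 chemokines, of which 6 to 11 were detected on each normal array, 10 were higher and 2 lower, and 5 and 2 in the tumors without pancreas transcripts. Ccl8 was detected in no normal sample and ranged from 6.09 to 11.87 among tumors, at least 20.2-fold higher (adjusted p = 1.54e-04). Cxcl12, the stromal ligand of Cxcr4, was at least 9.1-fold higher, and Xcl1 was lower and detected in no tumor. Of 15 complement genes 6 were higher and 3 lower, and 6 and 2 without pancreas tumors. Serping1, the C1 inhibitor, was detected in no normal sample (4.41, 4.53 and 5.10) and stood at 10.80 to 12.81 (median 11.32) in the tumors, at least 83.2-fold higher. Cd59a, which blocks the membrane attack complex, rose by 4.78 ± 0.54 from 6.40, 6.56 and 6.29 to values of 9.75 to 12.41 (median 11.47), while Cd55, which speeds decay of the convertases, fell by 4.65 ± 0.28.

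Among 20 genes of DNA methylation and Polycomb 3 were higher and 6 lower, where 18.5% of all genes were higher and 17.9% lower. Without pancreas tumors 2 were higher and 4 lower. Uhrf1, which brings the maintenance methyltransferase to replicated DNA, rose by 1.87 ± 0.28 from 7.66, 7.63 and 7.55 to values of 9.12 to 10.12 (median 9.25), and Idh2 by 2.71 ± 0.35. Dnmt3b and the Polycomb subunit Cbx7 changed by -0.83 ± 0.22 and -1.88 ± 0.53. Of 27 cathepsin and lysosome genes 10 were higher and 3 lower, and 7 and 3 without pancreas tumors. Cd63, a tetraspanin of late endosomes, rose by 4.54 ± 0.49 from 5.71, 5.75 and 5.90 to values of 9.31 to 11.34 (median 10.45), and Ctsh fell by 2.33 ± 0.46. Glb1 rose by 2.18 ± 0.46 on its brightest probe, and a second probe of it was called in the opposite direction, the single such case among 230 further probes of the genes named. Another 66 of these probes were not called although the brightest probe of their gene was, among them 3 of Gpnmb, 2 of Bbc3 and 2 of Dcn.

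The highest called gene was Klra17, a receptor gene of the Ly49 family, at 6.10, 5.76 and 5.78 in normal B cells and 11.22 to 14.36 (median 13.13) in tumors. It rose by 7.21 ± 0.65, or 148-fold (adjusted p = 6.85e-10), and by 7.61 ± 0.71 in the tumors without pancreas transcripts. The SLAM family receptor gene Slamf9 stood at 6.79, 6.94 and 6.75 in normal samples against 10.94 to 14.03 (median 12.71) and rose by 5.55 ± 0.55. Rsph1, known from the axoneme of cilia, stood at 5.11, 4.96 and 4.81 in normal samples against 10.65 to 12.26 (median 11.37) and rose by 6.36 ± 0.39 (adjusted p = 2.82e-13). Tmem176b rose by 5.82 ± 0.42 and Serpina3n was at least 49.1-fold higher. Probes that share sequence among Ly49 receptors may not separate them, so the gene name Klra17 is that of the array annotation. Of 6 tested markers of natural killer cells none was called higher, and Klrd1 fell by 2.00 ± 0.71 (adjusted p = 0.127 without pancreas tumors). Their list mean was 5.74 to 7.54 in tumors and 7.09 to 7.30 in normal samples. Tumors 8 and 9, at 7.54 and 7.48, lay above every normal sample. Which cells gave the Klra17 signal was not tested.

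Genes of supporting tissue were higher in the tumors as well. Of 23 fibroblast and matrix genes 15 were higher and none lower (median 2.93, or 2.39 with 19 members at their bound), and 13 in the tumors without pancreas transcripts (median 2.52). Only 2 or 3 of them were detected on each normal array, so most could hardly be lower and the absence of lower calls carries little. The matrix proteoglycan gene Dcn was detected in no normal sample (4.55, 4.43 and 4.45) and stood at 9.73 to 12.45 (median 11.17) in the tumors, at least 69.4-fold higher (adjusted p = 6.13e-08). Sparc and Acta2 were at least 38.6-fold and 45.1-fold higher, and the collagen gene Col1a1 stood at 6.30 to 9.46 (median 7.23), at least 5.22-fold higher. The list mean lay between 7.00 and 8.50 in tumors and between 4.90 and 4.95 in normal samples. Of 20 endothelial genes, of which 1 to 7 were detected on each normal array, 17 were higher and 1 lower. Their median was 2.89, or 2.25 with 13 members at their bound, and the counts were 14 and 1 without pancreas tumors. Plvap, which forms the diaphragms of fenestrated vessels, rose by 5.33 ± 1.01 from 5.40, 4.92 and 4.69 to values of 9.66 to 10.92 (median 10.23), and Egfl7 by 4.73 ± 0.64. The exception was Pecam1, which B cells also express, which fell by 1.35 ± 0.42. Kdr, the VEGF receptor, was not called, at 5.31, 4.94 and 5.40 against 5.01 to 6.11 (median 5.29) (difference 0.12 ± 0.21, adjusted p = 0.701). Of 15 matrix metalloproteinases and inhibitors, of which 4 or 5 were detected on each normal array, 7 were higher and 1 lower (5 and 1 without pancreas tumors). Mmp14 was at least 12.2-fold higher. Reln, counted here among lymphatic endothelium markers, stood at 5.96, 6.05 and 5.67 in normal samples, at 6.86 in tumor 5 and from 10.5 to 12.4 in the other 10 tumors, a rise of 5.18 ± 1.00 (adjusted p = 1.41e-04). The lymphatic marker Lyve1 stood at 4.52, 4.76 and 4.67 against 5.13 to 7.20 (median 6.55) with no normal sample detected, and was at least 2.6-fold higher (adjusted p = 0.00619).

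Macrophage markers were split, with 5 of 22 higher and 2 lower, 3 and 1 without pancreas tumors, and a median of 0.05, against 18.5% of all genes higher and 17.9% lower. Gpnmb was at least 12.2-fold higher and Ms4a7 rose by 3.70 ± 0.50, while Cd163 of splenic red pulp macrophages fell by 2.25 ± 0.79 with overlapping values and Csf1r fell by 1.42 ± 0.49 (adjusted p = 0.0885 without pancreas tumors). Of 14 T cell markers 2 were higher and 1 lower, the same without pancreas tumors, and Cd3e overlapped at 4.43 to 7.48 (median 5.92). Of 15 neutrophil markers none was higher and 1 was lower, and none was called without pancreas tumors. These lists give the cells around the tumor cells only as levels in bulk RNA, in a spleen preparation on one side and lymph node tumors on the other, which cannot be told apart from the disease.

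Transcripts of the pancreas, liver and fat were present in some tumors. Of 32 exocrine pancreas genes 20 were higher with all 11 tumors and 0 higher and 1 lower with the 5 without raised pancreas genes, which the choice of those tumors fixes. The 20 calls also fell to 1 on the 14 arrays alone, 1 with the replicate number as a block, 2 with no detection filter, 1 with the stricter filter that left 3 of the genes tested, and 13 without background correction, and ran from 0 (without normal sample 2 or 3) to 27 with 1 array left out. The amylase gene Amy2a5 stood at 5.05, 4.72 and 4.76 in normal samples and from 4.63 to 15.27 in tumors. Ins2, the insulin gene, read 11.41 in tumor 5, 8.83 in tumor 4, 8.72 in tumor 10 and 7.87 in tumor 11, and under 5 in the others. Tumor 5 also carried liver transcripts, with Apoa1 at 13.30, Ttr at 12.90, Ahsg at 12.50 and Fgg at 12.26 and with none of these genes above 5.84 in any other tumor (Fgg in tumor 4). Adipoq of fat cells was highest in tumor 2 at 10.19. The liver list mean was 12.17 in tumor 5 and 5.46 to 7.18 in the other tumors. Beyond leaving out the tumors with pancreas transcripts, the part of these tissues in the results was not tested.

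The tumors also differed among themselves in genes outside these lists. Among the 5 tumors without raised pancreas genes the 20 most variable genes included Arg1, Rnase2a, Retnla, Chil3 and Chil4, picked from the 20 after their values were seen. Rnase2a, a ribonuclease gene, stood at 11.10 in tumor 6 and 11.47 in tumor 5 and at most 5.75 in the other tumors. Retnla, a resistin-like secreted protein, was high in the same pair, at 10.70 and 9.99. Arg1, an arginase gene, was at 10.65 in tumor 6, 10.21 in tumor 5, 8.95 in tumor 4, 7.54 in tumor 3 and 7.21 in tumor 11, and at 4.41 in tumor 1 and 4.39 in tumor 7. Chil3, a chitinase-like protein, was high in tumor 6 at 9.96 and at most 5.60 elsewhere. The chemokine gene Ccl21a of lymph node stroma ran from 4.63 in tumor 3 to 11.28 in tumor 1. Tumor 3, the tumor with the least H2-Eb1 and H2-Ea (6.18), read 4.79 for Rnase2a, 4.50 for Retnla and 4.54 for Chil3.

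**Figure D5:**
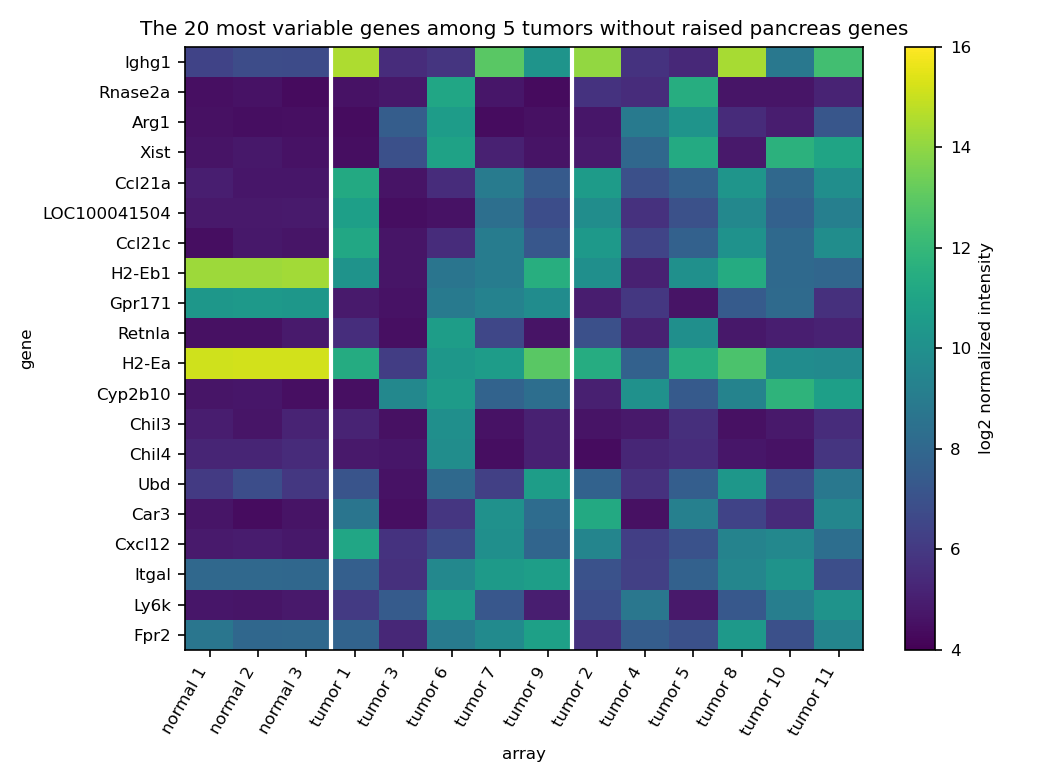
Log2 normalized intensity (colour) of the 20 genes with the highest SD among the 5 tumors without raised pancreas genes (rows) on 14 arrays (columns). Ighg1 spans 5.5 to 14.5 within those 5 tumors, and H2-Eb1 and H2-Ea are brighter in every normal sample than in any tumor.

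Sex-linked transcripts separated the tumors. Eif2s3y, on the Y chromosome, stood at 9.04, 8.94 and 8.93 in the normal samples, between 8.3 and 8.6 in tumors 1, 2, 3, 4, 7, 8 and 9, at 5.61 in tumor 5 and between 4.3 and 4.8 in tumors 6, 10 and 11. Xist, made from the inactive X chromosome of females, was undetected in the normal samples (4.66, 4.75 and 4.58), read 11.35, 10.91, 11.71 and 11.02 in tumors 5, 6, 10 and 11, and was intermediate in tumors 3 and 4 at 6.93 and 8.00. Tumors 3 and 4, taken at 40 and 57 days, thus gave both transcripts, and tumor 5 gave Xist with a trace of Eif2s3y. Sex is not among the labels. In the 8 tumors with Eif2s3y detected, 1941 genes were higher and 1957 lower than in normal B cells, and without tumors 3 and 4, a setting added after seeing the data, 2107 and 2062.

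Spontaneous tumors were set against adoptive-transfer tumors in the same fit to see where a change described above differed between the kinds. Of 11804 genes 160 (1.36%) were higher and 162 (1.37%) lower in spontaneous tumors, against 42 in all when the 6 spontaneous tumors with pancreas transcripts were left out. The adoptive-transfer tumors were all kept, although the mean of the pancreas list reached 7.72 in 1 of them and lay between 4.76 and 5.33 in the other 13. The largest positive differences were Try10, Reg1, Try4, Try5, Gp2 and Reg2, all pancreas genes, from 4.83 to 4.56. Derl3 and Sdc1 were higher by 1.13 (adjusted p = 0.0122) and 1.04 (adjusted p = 0.0285), and Tnfrsf13c, the BAFF receptor, by 1.47 (adjusted p = 0.0235). Each lay on the same side of normal B cells in both kinds of tumor, Tnfrsf13c below and the other pair above, by group median. Without the pancreas tumors the differences of Derl3, Sdc1 and Tnfrsf13c were 1.17, 1.17 and 1.75, no smaller than with all 11. With fewer tumors they were not called (adjusted p = 0.128, 0.149 and 0.12). Chil1 and Saa3, secreted products of inflamed tissue, differed by -3.84 (adjusted p = 1.63e-05) and -3.42 (adjusted p = 0.00232) and were still called without the pancreas tumors (adjusted p = 0.00527 and 0.0309). Pkm differed by -0.85 in spontaneous tumors (adjusted p = 0.00842), and by -0.87 without the pancreas tumors, where it was not called (adjusted p = 0.0714). The kind of tumor coincides with the tissue, lymph node or oil granuloma, so the tissue and the way the tumor arose cannot be told apart. Sex-linked transcripts differed with the kind as well. Eif2s3y was detected in no adoptive-transfer tumor (4.40 to 4.82) and in 8 of 11 spontaneous tumors, and Xist read 9.12 to 11.90 in the adoptive-transfer tumors. The part of sex in these differences was not tested.

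Age gave no called gene among the 11 tumors. In limma 0 of 11804 slopes had an adjusted p under 0.05 (0% of genes), and 1339 had an unadjusted p under 0.05. That is a larger share of the genes than 0.05, so the lack of calls among 11 tumors does not show that slopes were absent. The smallest adjusted p-value, 0.127 in limma, was shared by Smpdl3b, Chchd10 and Gng13. Their slopes were -1.85 ± 0.28, 1.62 ± 0.25 and -1.11 ± 0.18 log2 units per 100 days (SE). Tumors 3 and 4, at 40 and 57 days, are the youngest, and the other 9 lie between 106 and 162 days.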

How the data were processed

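Total RNA of frozen tissue was labelled as biotin cRNA and hybridised to Illumina mouse bead arrays, per the labels' protocols. The authors deposited linear bead intensity for 45281 probes without normalization, and per the file headers a detection score beside each intensity, taken here as 1 minus the detection p. The authors' deposited log2 table agreed in rank with these intensities after quantile normalization and served as an alternative. Partek is named, without a version, per the submitters' processing notes.

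Background was corrected with limma's nec (negative controls inferred from the detection p, offset 16), the 28 arrays were quantile normalized and values were taken as log2. Of the probes 34885 had 1 gene symbol, 18 several and 10378 none, and RefSeq held no matching gene ID for 65 of 19057 symbols. A gene took its probe with the highest mean and was tested if detected (p under 0.05) on at least 3 arrays. One linear model held the 3 groups (limma 3.58.1, R 4.3.3, data.table version 1.17.8) with Benjamini-Hochberg adjustment over all genes, and an adjusted p under 0.05 was a call. Every adjusted p in the text is from limma. SE is the standard error of the log2 difference.

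On simulated data with changes of 1 log2 unit 38 of 100 changed genes were recovered, with 2 log2 units 88 of 100, and 4 of 11604 unchanged genes were called. Few genes were changed there and noise was drawn for each gene alone. In the data 36.4% of genes were called, so these rates do not give the sensitivity of the real comparison. The members and gene lists were chosen with earlier results of these data known. Genes are named by rule: the 12 highest and 12 lowest called genes without overlap, up to 6 called members with the largest change per list and any that moved against it, Myc, Il6, Il6ra and sex-linked transcripts, the most variable genes, and the largest differences between the kinds of tumor. Members named beyond this rule (among them Irf4, Prdm1, Ms4a1, Hspa5 and Ddit3) were chosen as well-known genes after their values were seen. Replicate numbers were shared by the groups, but the deviations of same-numbered samples correlated at 0.009, -0.048 and 0.014, so they do not pair the samples.

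The alternatives were the background correction, the scaling, the authors' values, other detection filters, array weights, the mean of probes, the 14 arrays alone, the replicate block and left-out samples. Precision is limited by the 3 normal arrays. Probes without a listed gene were not used for gene results.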

Additional observations from a re-analysis of the deposited data

Results flagged for a closer look

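The difference between spontaneous and adoptive-transfer tumors was tested directly in limma, and 322 genes passed. Among the genes named, those higher in spontaneous tumors were, as log2 differences, the pancreas genes Try10 (4.83), Reg1 (4.80), Try4 (4.67), Try5 (4.67), Gp2 (4.58), Reg2 (4.56), Cela2a (4.51), Gm5409 (4.39), Ctrb1 (4.35), Reg3b (4.22) and Cpb1 (4.06). Without the 6 tumors with raised pancreas genes these 11 differed by -0.44 to 0.10, which follows from the choice of those tumors. Also higher were Eif2s3y by 2.56, Tnfrsf13c by 1.47, Derl3 by 1.13, Sdc1 by 1.04, the keratin gene Krt18 by 1.02, Sqle by 0.91 and Lman1 by 0.64.

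Lower in spontaneous tumors were Pkm with a difference of -0.85, Nfkbid with -0.90, Trem2 with -1.50, Hal with -1.57, Ptgis with -2.01, the macrophage receptor gene Vsig4 with -2.26, Saa3 with -3.42, Xist with -3.47 and Chil1 with -3.84. Of all the named genes here, Eif2s3y (3.12), Xist (-4.68), Chil1 (-3.81) and Saa3 (-3.51) were still called without the pancreas tumors. Xist and Eif2s3y are sex-linked, and the labels do not give the sex of the animals.

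Of 3828 tested probes without a listed gene, 358 were called higher and 763 lower in spontaneous tumors than in normal B cells. They were not assigned to genes.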

How the results depend on the processing

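With 3 normal arrays precision is limited, and undetected genes give only bounds. The 4301 calls were 3942 with the replicate block, 3898 in tumors with Eif2s3y detected, 5638 on the 14 arrays alone, 7161 with array weights and 4169 without tumors 3 and 4, the last chosen after seeing the data. Of 302 named called genes 279 were still called without background correction, 275 with median scaling, 279 in the authors' table, 251 without pancreas tumors and 266 with the replicate block. The numbers do not pair the samples, and every normal sample deviated most like a tumor of another number. Leaving out 1 array gave 3276 (without normal sample 2) to 4268 calls and 2667 (without normal sample 3) to 3055 of at least 1 log2 unit. The list medians then ran from -3.83 to -3.71 for B cell surface receptors, -2.66 to -2.56 for B cell transcription factors, -5.02 to -4.34 for MHC class II, 1.45 to 1.55 for ER translocation, 2.26 to 2.39 for mitosis, 1.05 to 1.19 for amino acid stress, -2.75 to -2.61 for immediate early genes, 2.63 to 3.05 for fibroblast, 2.83 to 2.97 for endothelium and 3.86 to 4.82 for exocrine pancreas. Without background correction, which compresses dim differences, 1595 genes changed by at least 1 log2 unit, and 1612 did in the authors' values. The medians were -2.86 and -2.88 for B cell surface receptors, -1.65 and -1.67 for B cell transcription factors, -3.68 and -3.73 for MHC class II, 1.08 and 1.11 for ER translocation, 1.15 and 1.18 for mitosis, 0.52 and 0.52 for amino acid stress, -2.23 and -2.20 for immediate early genes, 1.29 and 1.33 for fibroblast and 1.23 and 1.27 for endothelium. Median scaling gave -2.94 for B cell transcription factors, 1.27 for ER translocation, -2.92 for immediate early genes and 140 genes between the kinds of tumor. The stricter filter gave 1.81 for amino acid stress and 3.37 for endothelium, and no filter -1.96 for B cell transcription factors, 1.72 for mitosis and -1.99 for immediate early genes. Both definitions of raised pancreas genes removed the same tumors and gave 42 genes between the kinds of tumor, 0.80 for amino acid stress and 0.11 for exocrine pancreas. The replicate block gave -2.95 for immediate early genes and 3.85 for endothelium, the mean of probes -2.24 for B cell transcription factors and 2.31 for fibroblast, and leaving out tumors 3 and 4 -4.00 for MHC class II and 2.46 for fibroblast. Directions turned for the interferon list (-0.60 with the replicate block and -0.18 with median scaling), the macrophage list (-0.13 and -0.10 under the same), the Polycomb list (-0.13 with median scaling and -0.13 with the replicate block), the BCL2 list (-0.53) and the lymph node stroma list (-1.57) under the stricter filter, and the IL-6 list (0.03) and Rpl23 (0.09) with the mean of probes. These are not all, since some marker lists with medians near 0 also changed sign. Without pancreas tumors Try10 (-0.02), Try5 (0.00), Gp2 (-0.08), Zg16 (-0.01) and Cpb1 (-0.06) turned, with small values that follow from the choice of those tumors. Uty turned to 0.03 in tumors with Eif2s3y and with the replicate block, Vsig4 to -0.12 with the block, and Il6 to -0.02 with array weights and without normal sample 2, -0.04 without tumors 3 and 4, and between -0.03 (without tumor 3) and 0.07 with 1 array left out. Unless stated, the cause was not tested.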

Other observations

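Muc1, a transmembrane mucin gene outside the naming rule and chosen after its values were seen, was detected in no normal sample (4.84, 4.96 and 4.85) and in every spontaneous tumor, at 6.73 to 10.63 (median 8.56). It was at least 12.3-fold higher (adjusted p = 2.59e-07, limma) and was called in the tumors without pancreas transcripts too (adjusted p = 1.74e-07). The tumors without pancreas transcripts stood at 7.78 to 10.08, so those with them held both the lowest and the highest value and overlapped the others. Muc1 also differed between the kinds of tumor. It stood at 4.61 to 6.50 in adoptive-transfer tumors and was higher in spontaneous tumors by 3.35 (adjusted p = 6.76e-08). Without the pancreas tumors it was higher by 3.58 (adjusted p = 4.02e-07).

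Tumors 3 and 4, the youngest, gave both Xist and Eif2s3y and also the lowest Cd74, at 8.89 and 9.34, against 9.83 or more in the other 9. They also had the lowest H2-Eb1 and the highest Prdm1, at 7.17 and 7.85 against at most 7.04 elsewhere. These are values of 2 samples with no test.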
